A study of Mus musculus with 34 samples.

Results

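The genes described here encode the link between the muscle fibre's cytoskeleton and the laminin of its basement membrane: utrophin (Utrn), dystroglycan (Dag1), alpha-sarcoglycan (Sgca), beta-2-syntrophin (Sntb2), integrin alpha-7 (Itga7), the laminin chains alpha-2 (Lama2) and beta-2 (Lamb2), nidogen-1 (Nid1) and plectin (Plec1). They were chosen by name, as genes whose symbol is the only symbol annotated to a probe in both deposited value tables, and 9 of the 637 genes named in both tables were taken. Of the 9, 6 had 1 probe and 3 had 2 probes in each table (Lama2, Lamb2 and Nid1), which made 12 member probes among the 1200 of each table.

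The study measured RNA of mouse diaphragm and of hindlimb muscle on 34 two-colour arrays, in BL10 mice, the control strain, and in mdx mice, the strain with X-linked muscular dystrophy. Mice were 3, 5, 9 or 12 weeks old. They were either untreated or treated with L-arginine, the substrate of nitric oxide synthase, which has been tried in mdx mice as a way to raise utrophin. Untreated BL10 diaphragm, untreated BL10 hindlimb and each of the 4 treated groups had 4 arrays, 1 per age; untreated mdx diaphragm and untreated mdx hindlimb had 5, with a second array at 12 weeks. The labels give no dose, no number of mice per array and no hindlimb muscle by name, and leave unstated if separate mice were used, so the p-values below measure the spread between these arrays. Each array paired the named sample with a 12-week RNA of its strain, and the labels of the treated arrays do not say if that 12-week RNA came from treated mice. The channel labels name no tissue, so it is also unstated in either table if the 12-week RNA was of the same muscle as the named sample. The untreated arrays stand in 1 table and the treated arrays in the other, so the effects of treatment and of table cannot be told apart.

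Each deposited value is a ratio of the channels, not an expression level. Its direction, not given in the sources used here, was taken to be named sample divided by 12-week RNA. That is likely only, and with the ratio turned every sign below turns. A strain difference thus compares ratios that each rest on the 12-week RNA of the strain in question, and whatever the strains already differ by in that RNA cancels. The same holds for a tissue difference if each muscle was set against its own 12-week RNA, and does not if 1 RNA served both muscles. Ratios of 0 or below have no logarithm and were left missing.

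Dystrophin, the protein missing in mdx muscle, normally ties actin inside the fibre to dystroglycan in its membrane, and dystroglycan holds laminin outside. Sarcoglycans and syntrophins sit beside dystroglycan in that complex, and utrophin, a close relative of dystrophin, can take its place. In muscle fibres without dystrophin, utrophin is found along the membrane in larger amounts than in healthy adult fibres, where it is kept to the neuromuscular and myotendinous junctions. Integrin alpha-7 forms a second receptor for laminin, and plectin ties intermediate filaments to these membrane sites. Dmd, the dystrophin gene, was not among the genes named in both tables.

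The arrays differed among themselves before any gene is considered. The median ratio of an array lay between 0.73 and 1.08 in the untreated table and between 0.94 and 1.22 in the L-arginine table. Untreated BL10 arrays at 3 weeks had 168 (diaphragm) and 225 (hindlimb) of 1200 ratios at 0 or below, and the BL10 hindlimb array at 12 weeks had 128, against 0 to 53 on the other untreated arrays and 2 to 36 on the treated ones. The 12-week arrays carry a 12-week label in both channels, yet the median absolute log2 ratio over all features was 0.275 on them and 0.252 on the younger arrays of the untreated table, and 0.315 and 0.278 in the L-arginine table. For the 9 genes these medians were 0.193 and 0.209 untreated, and 0.287 and 0.35 treated, so the members departed from a ratio of 1 about as far where both labels name the same age. 1 treated array, BL10 hindlimb at 9 weeks by its title, is labelled mdx for both of its channels and stayed with BL10 here. Of 12 skeletal muscle fibre markers, 7 had a probe (Ckm, Mylpf, Tnni2, Tnnt3, Myh4, Atp2a1 and Tnni1), but a ratio gives no level by which to check a tissue.

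No member passed the threshold (limma, adjusted p under 0.05, Benjamini-Hochberg over all features) in any of the 24 comparisons tested. Few features of the whole tables did so. For strain, 0% of 1014 features were called in untreated diaphragm, 0.0986% in untreated hindlimb, 0% of 1019 in treated diaphragm and 0.393% in treated hindlimb. For tissue, the shares were 0.0986% in untreated BL10, 0% in untreated mdx, 0% in treated BL10 and 0.393% in treated mdx. For the difference between tables, over 632 genes, they were 0% in BL10 diaphragm, 0.633% in mdx diaphragm, 4.27% in BL10 hindlimb and 3.01% in mdx hindlimb, 0% for its difference between strains and 1.11% for its difference between tissues. For age and for strain by tissue they were 0% in both tables, and for strain by age 0.302% untreated and 0% treated. The absence of called members is therefore read against shares of at most 4.27%. The intervals below say how large a difference in these ratios the arrays leave possible. What the strains already differ by in the RNA of the other channel cancels, so no interval bounds it. The strain fits also average over arrays with the same age label in both channels, which could shrink a difference seen only at younger ages.

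Utrophin gave the most unusual values of the group. In the untreated table its ratio at 3, 5, 9 and 12 weeks was -2.37, 1.17, 1.11 and 0.94 in BL10 diaphragm. In mdx diaphragm it was 2.35, 1.22 and 0.76 at 3, 5 and 9 weeks, and -0.34 and 1.06 on the 12-week arrays. BL10 diaphragm thus lay around 1 from 5 weeks on, with its 3-week array below 0, while mdx diaphragm ran from 0.76 to 2.35 with 1 of its 12-week arrays below 0.

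In untreated hindlimb the Utrn ratio was 0.81, 0.88, 0.7 and 0.87 in BL10 at 3, 5, 9 and 12 weeks. In mdx hindlimb it was 0.9, 0.97 and 0.84 at the younger ages, and 0.61 and 1.03 at 12 weeks. Of these 9 hindlimb ratios only 1, on a 12-week array, exceeded 1, and the strains overlapped. The mean log2 ratio was 0.10 ± 0.16 (SD, n = 3) in BL10 diaphragm, 0.30 ± 0.68 (n = 4) in mdx diaphragm, -0.30 ± 0.15 (n = 4) in BL10 hindlimb and -0.22 ± 0.30 (n = 5) in mdx hindlimb.

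The fitted tissue difference of Utrn, diaphragm minus hindlimb, was 0.50 ± 0.30 (SE) in BL10 mice and 0.50 ± 0.28 in mdx mice, with limma adjusted p of 0.574 and 0.973. In BL10 the 3 positive diaphragm ratios, 0.94 to 1.17, all lay above the hindlimb ratios, 0.7 to 0.88, but the 3-week diaphragm ratio of -2.37 has no logarithm and is missing from the fit. Of the 675 features with a value on every array of these groups, 6.37% did not overlap there. Utrn is not among them, and its separation is of 3 against 4 arrays, so that share is not a like measure. With the ratio of -2.37 counted, the diaphragm and hindlimb ratios overlapped. For strain, the 95% interval of mdx minus BL10 ran from -0.57 to 0.77 in diaphragm and from -0.50 to 0.71 in hindlimb. The arrays therefore leave room for a strain difference of either sign in the ratio to each strain's own 12-week RNA.

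On treated arrays Utrn stood apart from nearly all others. Its ratio at 3, 5, 9 and 12 weeks was 0.99, 0.0, 0.05 and 0.1 in BL10 diaphragm and -4.34, -0.86, 0.25 and 0.32 in mdx diaphragm. Treated hindlimb gave 0.17, -0.85, 0.54 and -0.59 for BL10, while mdx read -0.06, -0.35, -0.91 and 0.41. All 16 ratios lay below 1, and 8 of them were 0 or below, including all 4 at 5 weeks.

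No other of the 1200 probes had as many ratios of 0 or below: 1 probe (0.0833%), that of Utrn, reached 8, the next reached 6, and 1075 probes had none. A ratio below 1 on all 16 arrays was seen for 11 probes (0.917%). The median Utrn ratio was 0.025 in this table, against 0.89 in the untreated table, where 2 of 18 ratios were 0 or below and 12.7% of probes had as many. The 3 probes listed before it in the L-arginine table (Ryr1, Lama2 and Dag1) and the 3 after it (Tuba1a, Erbin and Ckm) had no ratio of 0 or below, and their medians ran from 0.82 to 1.48.

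With 8 positive ratios Utrn did not reach the filter of 75% of arrays and has no main test in the L-arginine table. When features with at least 2 values were tested, from its positive ratios alone, the difference between tables (L-arginine minus untreated) was -2.82 in BL10 diaphragm (95% interval -4.25 to -1.38, limma adjusted p = 0.21) with 3 treated values. It was -1.83 in mdx diaphragm and -1.52 in BL10 hindlimb, each with 2 treated values (adjusted p 0.292 and 0.273). Treated mdx hindlimb had 1 positive ratio, 0.41, and no test is given for it. With ratios of 0 or below set to the lowest positive ratio of their array, the 4 differences ran from -1.74 to -2.60, with adjusted p from 0.211 to 0.885. These differences were negative and none passed the threshold. The treated strain difference of Utrn was 0.17 in diaphragm (interval -1.99 to 2.33) and 0.27 in hindlimb (-1.89 to 2.43) under that setting. From positive ratios alone this difference was 1.22 in diaphragm (interval -2.24 to 4.69). In hindlimb, with 1 positive ratio in mdx, it was 1.25. The treated arrays thus bound the strain difference in this ratio poorly. Whether the treated mice, the platform or the probe set these ratios cannot be told apart.

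**Figure D1:**
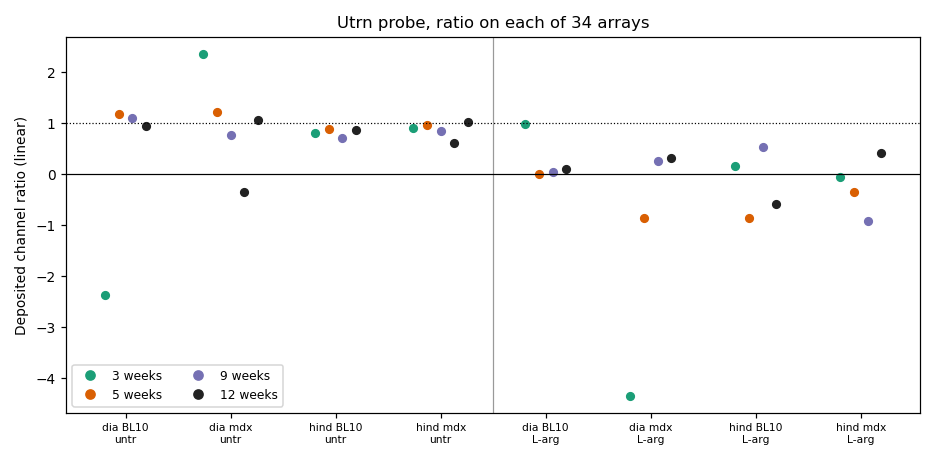
Deposited Utrn ratio (linear, y axis) on each of 34 arrays by group (dia, diaphragm; hind, hindlimb; untr, untreated; L-arg, L-arginine), coloured by age; the solid line marks 0 and the dotted line 1. All 16 treated arrays lie below 1, and 8 of them at 0 or below, against 2 of 18 untreated arrays.

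Dystroglycan, the laminin receptor at the centre of the complex, stayed close to a ratio of 1. On untreated arrays the Dag1 ratio at 3, 5, 9 and 12 weeks was 0.91, 1.14, 0.7 and 0.75 in BL10 diaphragm and 1.19, 1.04, 1.03 and 1.12 in BL10 hindlimb. In mdx mice it was 0.74, 1.1, 1.2, 1.01 and 1.05 in diaphragm and 1.17, 1.22, 0.98, 1.19 and 1.16 in hindlimb, the last values of each being the second 12-week array. The untreated range of 0.7 to 1.22 was narrow beside that of the other members, and the 4 BL10 hindlimb ratios were all above 1.

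The fitted Dag1 tissue difference in untreated mice was -0.35 ± 0.22 (SE) in BL10 and -0.18 ± 0.20 in mdx (limma adjusted p 0.574 and 0.996). On treated arrays Dag1 was 0.92, 0.83, 0.96 and 0.76 in BL10 diaphragm and 0.8, 1.08, 0.67 and 0.96 in mdx diaphragm. In treated hindlimb it was 0.36, 0.89, 0.97 and 1.39 in BL10 and 1.26, 1.26, 0.79 and 1.08 in mdx. The lowest of these, 0.36 at 3 weeks in BL10 hindlimb, carries the treated hindlimb strain difference: it was 0.41 ± 0.33 (adjusted p 0.521) with that array and -0.00096 without it.

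Alpha-sarcoglycan, a membrane partner of dystroglycan whose loss causes a limb-girdle dystrophy, had quiet values in the untreated table and scattered ones in the L-arginine table. Its untreated ratio ran from 0.66 (BL10 diaphragm, 9 weeks) to 1.5 (mdx diaphragm, 12 weeks), with a median of 1.035. On treated diaphragm arrays the Sgca ratio at 3, 5, 9 and 12 weeks was 1.22, 0.14, 0.89 and 0.31 for BL10, while mdx gave 0.51, 3.93, 0.49 and -0.35. On treated hindlimb arrays it was 0.05, 1.9, 0.6 and 0.63 for BL10, while mdx gave 0.65, 2.14, 2.73 and 1.59. Each treated group held ratios on both sides of 1, and the groups overlapped.

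That spread left the treated Sgca strain difference wide, at 1.85 ± 1.12 (SE) in hindlimb with a 95% interval from -0.62 to 4.32 (limma adjusted p 0.387) and 1.09 ± 1.27 in diaphragm (adjusted p 0.998). In the untreated table it was 0.28 ± 0.24 in diaphragm and -0.0060 ± 0.24 in hindlimb (adjusted p 0.782 and 0.994). The untreated hindlimb interval of -0.51 to 0.50 was the narrower by far.

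Dag1 and Sgca varied together over arrays in each table, with a Spearman rho of 0.558 over 18 untreated arrays and 0.513 over 15 treated arrays. After each array was centred on its median, rho was 0.531 and 0.379. Their probes stood next to each other in the untreated table and 400 positions apart in the L-arginine table, and arrays are shared by all points. Other member pairs had a higher rho, among them Lama2 and Nid1 untreated (0.703) and Dag1 and Lama2 treated (0.678). The promoter windows of Dag1 and Sgca are shown as a description, as given by RefSeq for GRCm38.p6. They run from 250 bases before to 50 bases after the annotated start. Shared regulation was not tested. Capitals mark E boxes (CANNTG, the motif class of the myogenic MyoD family, the same on both strands) and GC boxes (GGGCGG or, on the other strand, CCGCCC, the Sp1 motif). The Dag1 window is chr9:108263909-108264208 on the minus strand, around the gene's annotated start, and the Sgca window is chr11:94976278-94976577, also on the minus strand.
Dag1: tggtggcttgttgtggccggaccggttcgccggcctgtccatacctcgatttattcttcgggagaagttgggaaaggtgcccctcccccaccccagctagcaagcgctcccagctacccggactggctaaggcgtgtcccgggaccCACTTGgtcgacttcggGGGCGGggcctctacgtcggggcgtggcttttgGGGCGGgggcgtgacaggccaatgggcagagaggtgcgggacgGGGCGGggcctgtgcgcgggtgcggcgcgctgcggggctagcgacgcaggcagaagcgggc
Sgca: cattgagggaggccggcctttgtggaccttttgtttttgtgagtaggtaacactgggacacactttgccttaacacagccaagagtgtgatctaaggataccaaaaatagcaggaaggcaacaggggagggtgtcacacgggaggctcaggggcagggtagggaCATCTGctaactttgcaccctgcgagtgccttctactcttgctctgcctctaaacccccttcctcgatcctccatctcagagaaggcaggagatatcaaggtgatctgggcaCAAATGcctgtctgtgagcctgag
The Dag1 window held 1 E box and 3 GC boxes at a GC content of 69.7%, and the Sgca window 2 E boxes and 0 GC boxes at 52.7%. Among 32851 RefSeq promoter windows of this length, 72.3% held an E box and 35.7% a GC box, and the median GC content was 52.7%. These are matches of letters, not sites shown to be bound. A window was listed for 6 of the 9 members, with 7 entries in all, as Dag1 has a pair of overlapping entries of which the first is shown.

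Beta-2-syntrophin, an adaptor that binds utrophin and dystrophin, had widely scattered untreated ratios. The Sntb2 ratio was 0.14, 0.88, 0.97 and 0.86 in BL10 diaphragm and 0.7, 1.52, 14.71, 1.07 and 0.56 in mdx diaphragm. In BL10 hindlimb it was -0.8, 1.8, 0.61 and -7.1, and in mdx hindlimb 1.64, 1.24, 1.15, 1.06 and 0.86. Single arrays at 3 weeks in BL10 and at 9 weeks in mdx lay far from the rest of their groups.

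The fitted strain difference of Sntb2 in untreated diaphragm, 1.56 ± 0.75 (SE, limma adjusted p 0.529, 95% interval -0.06 to 3.18), was 0.71 without the mdx 9-week array. In untreated hindlimb, with 2 positive ratios in BL10, it was 0.96 and ran from -0.37 to 2.29 as single arrays were left out. On treated arrays the ratio lay between 0.62 and 0.9 in all 8 diaphragm arrays (0.9, 0.62, 0.66 and 0.9 in BL10, and 0.87, 0.84, 0.68 and 0.81 in mdx). In treated hindlimb it was 1.13, 0.96, 1.87 and 0.86 in BL10 and 0.64, 3.9, 0.91 and 1.1 in mdx. Diaphragm minus hindlimb was -0.60 ± 0.45 in BL10 and -0.66 ± 0.45 in mdx (adjusted p 0.598 and 0.402), and the mdx value was -0.06 without the 5-week hindlimb array.

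Sntb2 and Lama2 had the highest rho of any member pair in the untreated table, 0.724 over 16 arrays. Their probes stood 2 positions apart there, and among positive ratios both were lowest on the BL10 diaphragm array at 3 weeks. In the L-arginine table, where the nearest of their probes stood 385 positions apart, rho was 0.272 over 16 arrays. Over all member pairs the median rho was 0.154 untreated (36 pairs, 24 above 0) and 0.252 treated (28 pairs, 20 above 0). The part of probe position in these values was not tested.

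Integrin alpha-7, the muscle laminin receptor outside the dystroglycan complex, had untreated ratios of 1.08, 0.85, 0.91 and 0.81 in BL10 diaphragm and 0.69, 1.14, 1.02, 1.42 and 0.82 in mdx diaphragm. In untreated hindlimb Itga7 was 0.81, 1.67, 1.21 and 0.69 in BL10 and 1.24, 1.12, 1.23, 1.3 and 1.22 in mdx. The mdx hindlimb arrays lay closest together of these groups, at 0.29 ± 0.08 (log2 mean, SD, n = 5), inside the BL10 range. Treated mdx hindlimb gave 1.52, 2.11, 1.07 and 1.38, all above 1, against 1.23, 1.57, 0.7 and 1.06 in treated BL10 hindlimb. The strain difference there was 0.43 ± 0.25 (SE, limma adjusted p 0.366) and the tissue difference in treated mdx mice, against diaphragm ratios of 1.31, 1.03, 1.03 and 0.88, was -0.49 ± 0.25 (adjusted p 0.262).

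**Figure D2:**
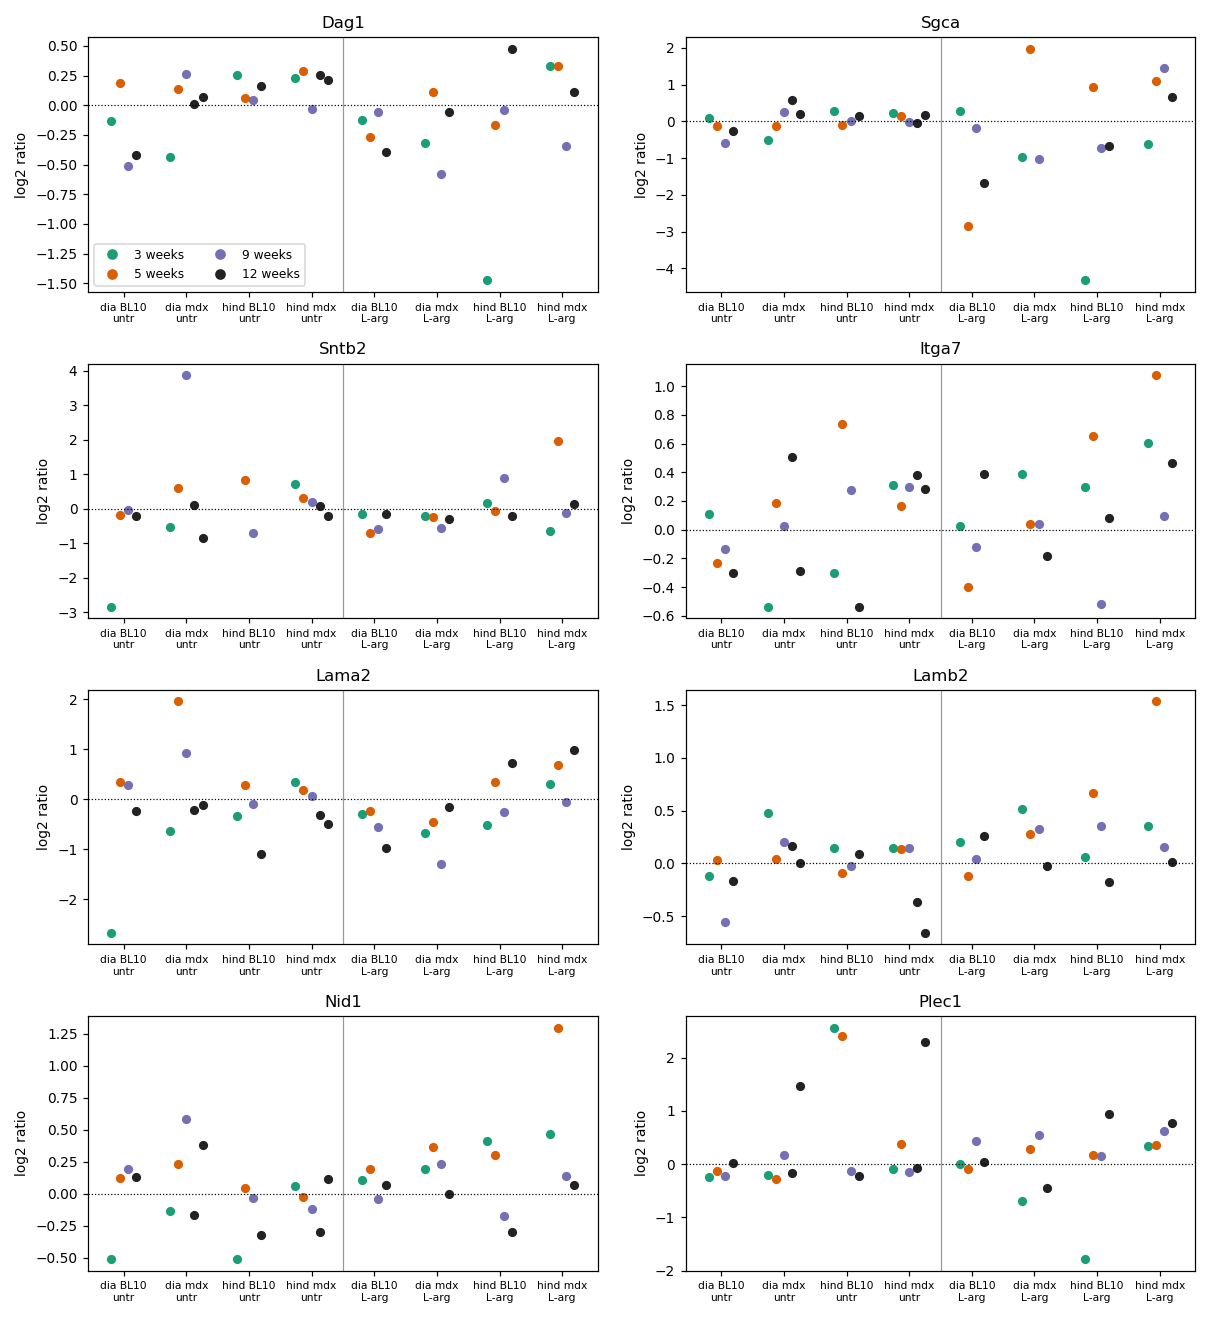
log2 ratio (y axis, mean over the probes of a gene) of the other 8 members on each array, by group (dia, diaphragm; hind, hindlimb; untr, untreated; L-arg, L-arginine) and coloured by age; each panel has its own scale. Sgca spreads more widely on treated than on untreated arrays, and Plec1 has 4 untreated arrays far above its other 14.

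The laminin alpha-2 chain, the ligand of both receptors in the muscle basement membrane and the gene mutated in a congenital muscular dystrophy, came nearest to a call. In treated mdx mice the mean log2 ratio of Lama2 was -0.64 ± 0.48 (SD, n = 4) in diaphragm and 0.48 ± 0.45 (n = 4) in hindlimb. The diaphragm arrays ran from -1.29 to -0.16 and the hindlimb arrays from -0.06 to 0.97, so the groups did not overlap. The fitted difference was -1.12 ± 0.26 (SE, 95% interval -1.70 to -0.54, limma adjusted p = 0.0586), against 0.393% of features called in that comparison.

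Among members with a value on every array, Lama2 was the only one without overlap in any of the 8 strain and tissue comparisons within a table, and 14.2% of features with complete values did not overlap in this one. Without the BL10 diaphragm array at 12 weeks, a group outside the contrast that shares the age term and the spread, the adjusted p was 0.0164; over all left-out arrays it ran from 0.0164 to 0.232. The difference itself stayed between -1.20 and -1.003. All 8 members tested had negative differences in this comparison, as the summary over members gives.

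The 2 Lama2 probes had the same sign here but differed in overlap. In treated mdx diaphragm the ratio of the second probe at 3, 5, 9 and 12 weeks was 0.34, 0.56, 0.73 and 0.89, and in hindlimb 1.47, 1.58, 0.92 and 2.0, with no overlap. The first probe, annotated with another accession of the gene, gave 1.17, 0.96, 0.23 and 0.9 in diaphragm and 1.05, 1.64, 1.0 and 1.93 in hindlimb, which overlapped. As single probes, first and second, their differences were -0.96 ± 0.36 (adjusted p 0.164) and -1.28 ± 0.35 (adjusted p 0.0782).

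In treated BL10 mice the Lama2 tissue difference was -0.59 ± 0.26 (limma adjusted p 0.388), and -0.26 without the 12-week diaphragm array. In untreated mice it was -0.26 ± 0.47 in BL10 and 0.42 ± 0.42 in mdx (adjusted p 0.847 and 0.996). The change of the tissue difference between tables, averaged over strains, was -0.94 ± 0.45 (adjusted p 0.261, against 1.11% of genes called), so it was not shown to differ. Fibroblast markers had the same sign in treated mdx mice: of 8, 3 had a probe (Col1a2, Postn and Fmod), and their differences were -0.46, -0.11 and -1.36, none called, and all 3 were also negative in treated BL10 mice (-0.58, -0.71 and -0.48). The endothelial marker Pecam1, the only 1 of 5 with a probe, lay above 0 in treated mdx mice, at 0.21, not called. The 3 macrophage markers with a probe, of 7, ran from -0.35 to -0.15 in treated mdx mice, the 3 liver markers (Alb, Apoa1 and Serpina1a) from -1.42 to -0.57, and muscle fibre markers had 2 of 7 above 0 and a median of -0.18. Their part in the Lama2 value was not tested, and in whole muscle fewer cells of a type and less RNA per cell cannot be told apart.

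**Figure D3:**
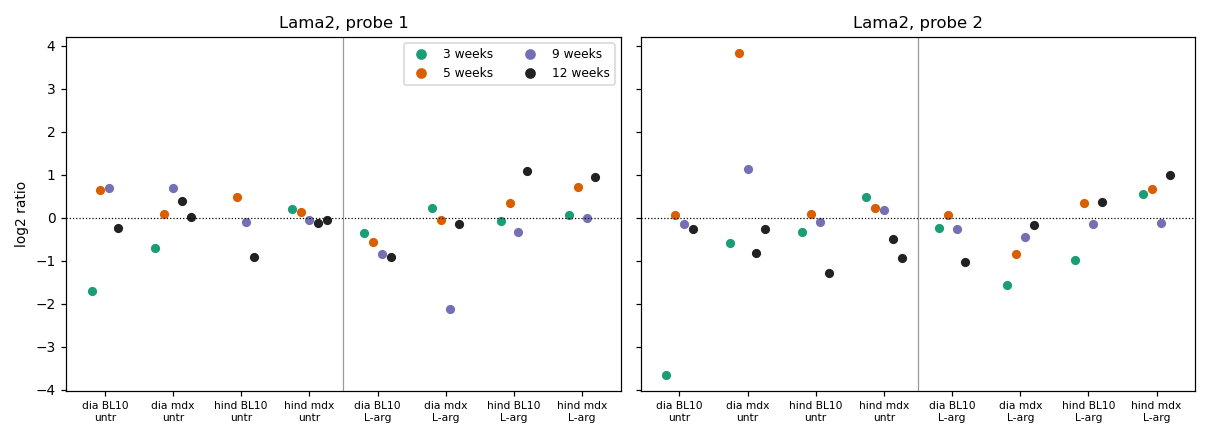
log2 ratio (y axis) of each of the 2 Lama2 probes on each array, by group (dia, diaphragm; hind, hindlimb; untr, untreated; L-arg, L-arginine) and age (colour). Probe 2 separates treated mdx diaphragm (0.89 and below as ratios) from treated mdx hindlimb (0.92 and above), and probe 1 does not.

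In the untreated table the Lama2 strain difference in diaphragm was 1.04 ± 0.44 (SE, 95% interval 0.09 to 1.99, limma adjusted p = 0.42, with 0% of features called). As single probes, first and second, it was 0.27 ± 0.36 and 1.80 ± 0.68 (limma adjusted p 0.883 and 0.443). The BL10 diaphragm array at 3 weeks had ratios of 0.31 and 0.08 on the probes, and the mdx diaphragm array at 5 weeks had 1.06 and 14.17. Without the former array the difference averaged over probes was 0.46. By age, Lama2 was higher at 5 than at 12 weeks by 1.22 ± 0.43 untreated (limma adjusted p = 0.93), and lower at 9 than at 12 weeks by a log2 difference of -0.68 ± 0.26 treated (limma adjusted p = 0.995). Neither age difference was called, and 0% of features were.

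Laminin beta-2, a chain of the synaptic basement membrane, had 2 probes that did not follow each other. Their Spearman rho was -0.204 over 17 untreated arrays and -0.279 over 16 treated arrays, and they lay on opposite sides of a ratio of 1 on 9 and 8 of these. The first probe read -112.71 on the mdx diaphragm array at 9 weeks, where the second read 1.15. The second probe read 4.29 on the mdx diaphragm array at 3 weeks and 7.25 on the treated mdx hindlimb array at 5 weeks, where the first read 0.45 and 1.16.

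Averaged over probes, Lamb2 had log2 means of -0.20 ± 0.25 (SD, n = 4) in untreated BL10 diaphragm and 0.18 ± 0.19 (n = 5) in mdx diaphragm, a fitted difference of 0.41 ± 0.21 (SE, limma adjusted p 0.564). By single probes that difference was -0.11 ± 0.40 and 0.84 ± 0.32 (adjusted p 0.963 and 0.443). Between tables, Lamb2 was higher on treated arrays of mdx hindlimb by 0.59 ± 0.23 (limma adjusted p = 0.153), and by 0.28 without the 5-week treated array. The sign of the strain difference thus depended on which probe was read.

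Nidogen-1, which joins laminin to the collagen IV network, showed the clearest disagreement between probes. Both carry the same accession, yet rho between them was -0.613 over 17 untreated arrays and -0.405 over 16 treated arrays. They lay on opposite sides of a ratio of 1 on 13 of 17 and 13 of 16 arrays. The median ratio was 0.79 and 0.93 for the first probe, in the untreated and the L-arginine table, and 1.205 and 1.315 for the second, so the second read higher in each table. For Lama2 the same rho was 0.608 and 0.588.

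In treated hindlimb the Nid1 mean was 0.49 ± 0.56 (log2, SD, n = 4) in mdx and 0.06 ± 0.35 (n = 4) in BL10, a difference of 0.43 ± 0.19 (SE, 95% interval 0.01 to 0.86, limma adjusted p = 0.276, with 0.393% of features called). The first probe read 0.84, 0.97, 0.94 and 0.94 in mdx and 0.86, 0.79, 1.1 and 0.81 in BL10. The second read 2.27, 6.23, 1.29 and 1.17 in mdx and 2.06, 1.93, 0.71 and 0.81 in BL10. As single probes the differences were 0.06 ± 0.16 and 0.81 ± 0.36, and without the mdx 5-week array the averaged difference was 0.22. Nid1 was also higher at 5 than at 12 weeks on treated arrays, by 0.58 ± 0.19 (limma adjusted p = 0.471), and by 0.37 without the mdx hindlimb array at 5 weeks.

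**Figure D4:**
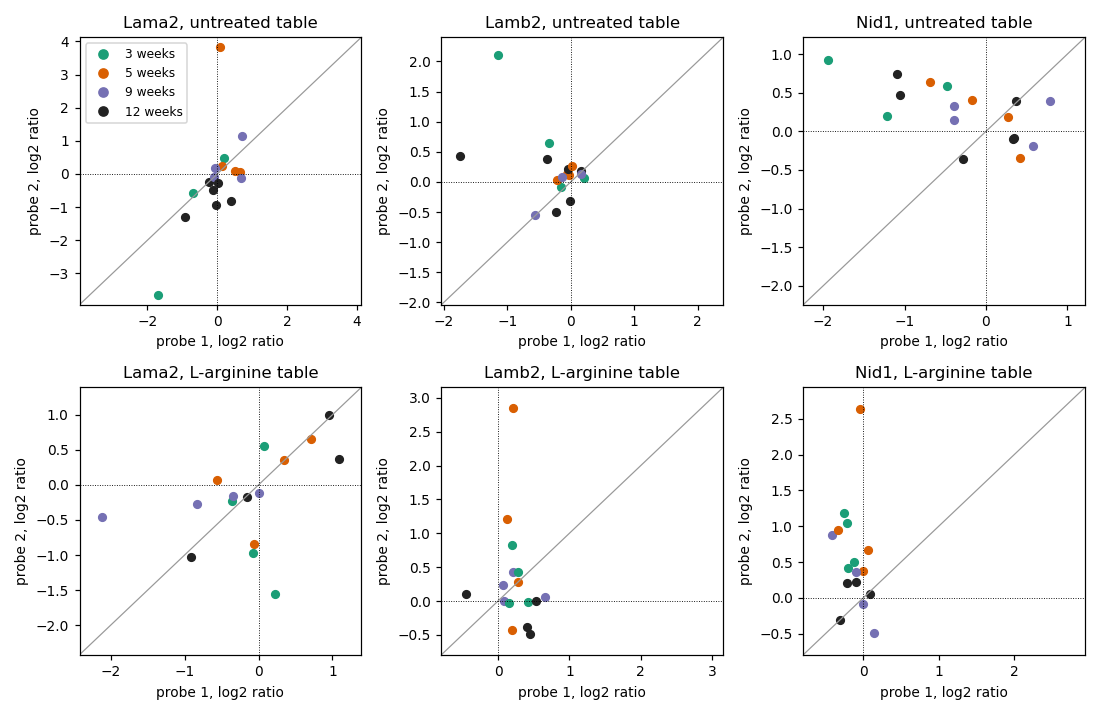
log2 ratio of probe 1 (x axis) against probe 2 (y axis) of Lama2, Lamb2 and Nid1, 1 point per array with both values, coloured by age, for the untreated (top) and the L-arginine table (bottom); the grey line marks equality. Lama2 points follow the line (rho 0.608 and 0.588), while Nid1 points fall along the opposite diagonal (-0.613 and -0.405).

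Plectin, the cytolinker that anchors desmin filaments at the membrane, was measured by a probe listed as Plec1. Its annotated gene identifier was not among those of the mouse RefSeq gene table, so the probe is described as labelled. On untreated arrays its ratio lay between 0.82 and 1.3 on 14 of 18 arrays and was above 2 on the other 4. These were BL10 hindlimb at 3 weeks (5.92) and 5 weeks (5.33) and the second 12-week arrays of mdx hindlimb (4.92) and mdx diaphragm (2.78). The first 12-week mdx arrays read 0.95 and 0.89.

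The 6 probes listed around it read 0.6 to 1.06 and 0.97 to 1.59 on the 2 BL10 arrays, and 0.78 to 3.23 and 0.97 to 1.7 on the mdx hindlimb and diaphragm arrays. On treated arrays the Plec1 ratio ran from 0.29 (BL10 hindlimb, 3 weeks) to 1.93 (BL10 hindlimb, 12 weeks), and in treated mdx hindlimb it was 1.26, 1.29, 1.54 and 1.7. No treated array came near the 4 high untreated ones.

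Untreated BL10 hindlimb accordingly had a Plec1 log2 mean of 1.16 ± 1.54 (SD, n = 4), and the fitted strain difference there was -0.73 ± 0.63 (SE, limma adjusted p 0.69). Between tables in BL10 hindlimb it was -1.29 ± 0.59 (limma adjusted p = 0.202, against 4.27% called), and -0.66 without the untreated 3-week array. In treated mice the age difference of 3 minus 12 weeks was -0.86 ± 0.38 (limma adjusted p = 0.808), and -0.41 once the 3-week BL10 hindlimb array was dropped.

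Seen as a set, the members leaned one way in a few comparisons without any call. For strain in untreated diaphragm all 9 differences were above 0, with a median of 0.28, while 67.5% of all 1014 features were above 0 with a median of 0.16. Read singly, the first Lamb2 probe was at -0.11 there, so that count rests on averaging probes. The BL10 diaphragm array at 3 weeks, with 168 ratios of 0 or below, was also low for Sntb2 and Nid1 (log2 -2.84 and -0.51). In treated hindlimb all 8 tested members were above 0, from 0.13 to 1.85 with a median of 0.42, against 58.3% of 1019 features and a median of 0.08. In untreated hindlimb and treated diaphragm the counts were 6 of 9 and 5 of 8, against 63.2% and 50.8% of all features. With the spread of arrays made equal, 8 of 9 and 7 of 8 were above 0 in the first pair of comparisons, and with quantile normalisation 7 of 9 and 7 of 8.

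Macrophage markers lay above 0 for strain in treated hindlimb. Of 7 markers, 3 had a probe, and Lyz2, the lysozyme of macrophages, was called there, at 1.97 ± 0.28 (SE, limma adjusted p 0.00699), with Cd68 and C1qb at 1.00 and 0.93, not called. The 3 fibroblast markers lay 0.51 to 0.86 above 0, not called, and the endothelial marker Pecam1, the only 1 of 5 with a probe, at -1.43. None of the 5 Schwann cell and 4 red blood cell markers was among the genes named in both tables. In treated hindlimb the 3 liver markers also lay above 0 for strain (0.06 to 0.43), and muscle fibre markers ran from -0.08 (Tnnt3) to 0.90 (Tnni1). In untreated diaphragm 2 of 3 macrophage markers and 3 of 3 fibroblast markers (0.10 to 0.30) were above 0 for strain. So were 6 of 7 muscle fibre markers, Pecam1 (0.14) and 1 of 3 liver markers, with 67.5% of all features above 0. Lyz2 was not called in treated diaphragm (0.79, adjusted p 0.998), and the part of these cells in the members' values was not tested. The mdx 5-week hindlimb array also had the highest array median of its table, 1.22, with Sntb2 at 3.9, Itga7 at 2.11 and Sgca at 2.14.

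For tissue, all 8 tested members were below 0 in treated mdx mice, from -1.12 to -0.24 with a median of -0.54, when 34.4% of all features were above 0 and their median was -0.20. Centring array medians left 0 of 8 above 0, while equal spread left 2 and quantile normalisation 1. In treated BL10 mice 4 of 8 were above 0, in untreated BL10 2 of 9 and in untreated mdx 5 of 9. Of all features, 41.8%, 60.2% and 65.3% were above 0 in these comparisons. Between tables, 7 of 8 were above 0 in BL10 diaphragm, 2 of 8 in mdx diaphragm, 5 of 8 in BL10 hindlimb and 7 of 8 in mdx hindlimb, with medians of 0.11, -0.13, 0.14 and 0.38. Of all 632 genes, 55.7%, 43.7%, 71.0% and 69.9% were above 0, with medians of 0.05, -0.06, 0.24 and 0.22. With array medians centred, the counts of members were 7, 4, 4 and 5 of 8. The comparisons share groups, so these counts are not independent of each other. In 11 of the 24 comparisons another scaling moved the median of all features by more than 0.1, the largest move being 0.313.

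**Figure D5:**
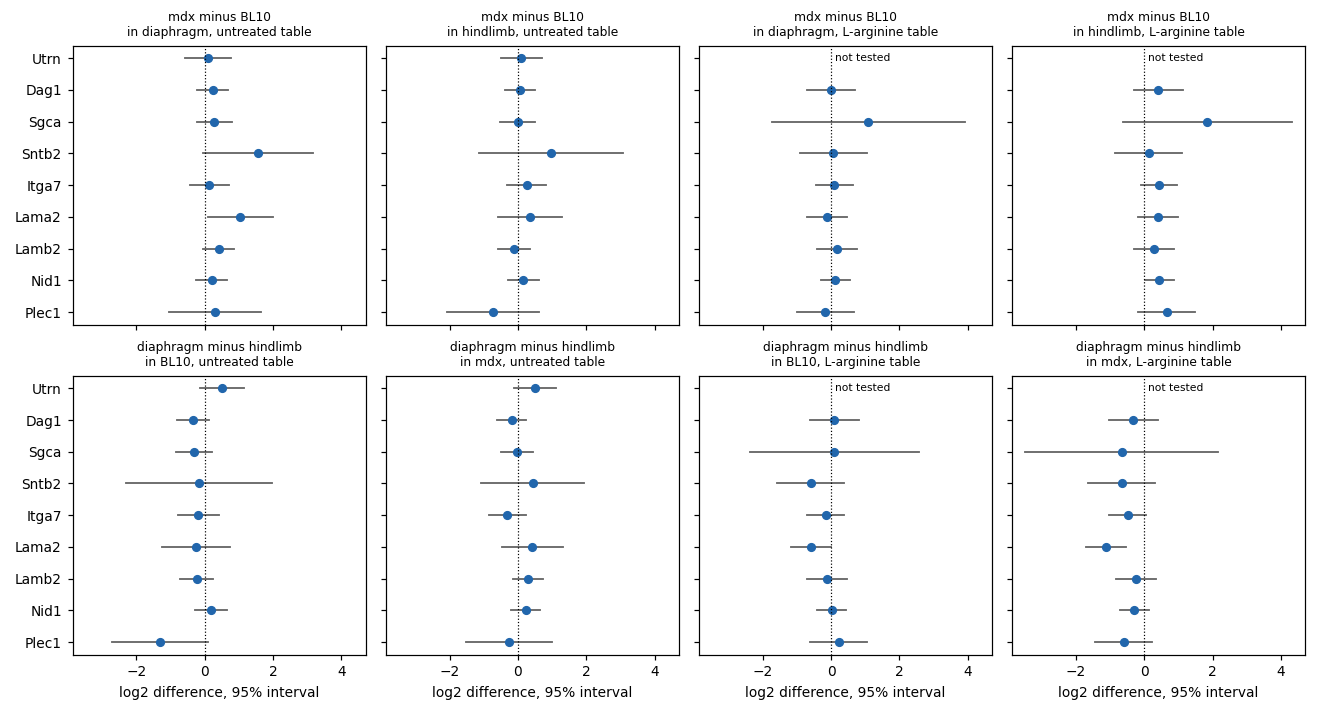
Fitted log2 difference (point) and 95% interval (line) of each member for mdx minus BL10 (top) and diaphragm minus hindlimb (bottom) in each table; Utrn was not tested in the L-arginine table. Most intervals include 0, and that of Lama2 for tissue in treated mdx mice (-1.70 to -0.54) lies farthest from it.

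Other genes of the pathway were hardly covered. Of 64 genes listed (the rest of the dystrophin-associated complex, dystroglycan glycosylation, neuromuscular junction, basement membrane, integrin and costamere, membrane repair), 4 had a probe of that name in both tables: biglycan (Bgn), talin-1 (Tln1), desmin (Des) and vimentin (Vim). None was called in any comparison. The smallest adjusted p was that of Bgn, a matrix proteoglycan that binds dystroglycan and sarcoglycans, between tables in mdx hindlimb, at 0.98 ± 0.29 (SE, limma adjusted p 0.056). On treated arrays the Bgn ratio was also higher in mdx than in BL10. The difference was 0.90 ± 0.23 in diaphragm and 0.61 ± 0.23 in hindlimb (limma adjusted p 0.357 and 0.2). Each ratio is to RNA of the same strain, so this does not show a difference in Bgn level between strains. Des, the filament that plectin anchors, had a treated hindlimb strain difference of 1.99 ± 0.82 (adjusted p 0.266).

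The genes whose untreated values followed Utrn most closely were 2700097O09Rik (Spearman rho 0.856 over 13 arrays), 5730414M22Rik (0.809 over 16) and Abl2 (0.792 over 16). For Dag1 they were Tgfb3 (0.776), Septin7 (0.712) and, next, Aamp over 18 untreated arrays, and Ppp2r5a (0.686), Lama2 (0.678) and Snx9 (0.67) over 16 treated arrays, where the second Lama2 probe stands next to that of Dag1. None of the 3 genes nearest to Dag1 was shared by the tables. These are the highest values among named genes with enough arrays shared with Utrn or Dag1, and are given as a description.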

How the data were processed

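RNA of 8 groups was measured on 34 two-colour arrays. The values deposited by the authors are linear ratios of the channels; per the labels, the named sample was in channel 2 and the 12-week RNA in channel 1. Not given in the sources used here: scanner, dyes, background correction, normalization, scale and direction. Ratio values of 0 or below were left missing and positive ones taken as log2. Each table has 1200 probes, 812 with 1 gene symbol in GEO's platform annotation, 99 with several and 289 not listed; probes of a gene were averaged, the others kept as features. Features with a value on 75% of arrays (1014 untreated, 1019 treated) were fitted with limma 3.58.1 in R 4.3.3 (group and age, eBayes), p-values adjusted by Benjamini-Hochberg over all features at 0.05; differences between tables used 632 genes. 95% intervals are the fit's, unadjusted. The fit was tested on simulated data. Summaries used Python 3.11.15 with pandas 2.3.3, figures matplotlib 3.10.9. Ratios carry no depth; the number of arrays limits the precision. Alternatives covered the filter, values of 0 or below, probes, scaling, age, the array with conflicting labels and each array left out. Members and lists were chosen with earlier results of these data known. By rule all 9 members are named, wider-list genes if called or else among the 3 smallest p of a comparison, and the 3 genes most like Utrn and Dag1; markers are named where they moved beside a result.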

Additional observations from a re-analysis of the deposited data

Results flagged for a closer look

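Among 65 groups of 4 or 5 arrays with a member's values, 5 held an array that stood apart from its group by Dixon's criterion; chance gives about 1 in 20. All 5 were in the untreated table. Plec1 stood high on both second 12-week mdx arrays, with log2 ratios of 1.4751 in diaphragm, where the next array was at 0.1763, and 2.2987 in hindlimb, where the next was at 0.3785. The BL10 diaphragm array at 3 weeks, which had 168 ratios of 0 or below, was low for Sntb2, at -2.8365 against -0.2176 for the next array, and for Nid1, at -0.5125 against 0.1216. Dag1 on the mdx hindlimb array at 9 weeks was at -0.0291, when the other 4 arrays lay between 0.2141 and 0.2869.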

How the results depend on the processing

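The count of members called, 0 in each of the 24 comparisons, became 1 under 3 settings. For tissue in treated mdx mice Lama2 was called when a value on every array was required (1 member) and when the treated 12-week array of BL10 diaphragm was left out (1 member, the range over left-out arrays being 0 to 1). For the tables in BL10 hindlimb Sntb2 was called with ratios of 0 or below set to the lowest positive ratio (1 member). In untreated BL10 hindlimb 2 of its 4 ratios were 0 or below, so that call rests on replaced values. In the main fit, without them, the difference was 0.52 (limma adjusted p 0.782). Over 201 member estimates, leaving out an array changed the sign in 207 of 4238 alternatives and the other settings in 153 of 2320; none of these estimates was called to begin with. The age term of the fit already matched arrays across groups by age. Beyond that match, no paired analysis was possible because the labels name no mice, litters or batches shared by groups. Utrn was poorly bounded under treatment, where its ratio was 0 or below, and so without a logarithm, on 8 of 16 arrays.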
